A study of Mus musculus with 12 samples.

Results

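The genes described here encode the machinery that copies DNA and the enzymes that make its deoxynucleotide building blocks. They were chosen by name, as 39 of the 24147 genes counted in every library, and all 39 were among the 14560 genes with enough counts to be tested. The choice was made with earlier results of these data known. They cover loading of the replicative helicase, the helicase itself, its activation, the polymerases and primase, the sliding clamp and its loader, lagging strand maturation, the proteins that coat exposed strands, nucleotide synthesis and cyclin E.

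RNA had been sequenced from lens capsules and the lens epithelial cells attached to them, collected from 2 month old mice whose lens fiber cells had been taken out in an operation that models cataract surgery. The 12 libraries formed 4 groups of 3, with 8368160 to 10862573 counts each. These were fibronectin conditional knockout mice (FNcKO) at 48 h and at 0 h after the operation, and wild type (WT) mice at 48 h and at 0 h. Every group, the 0 h groups included, came from operated lenses, from which the fiber mass had been taken out. Lens fiber markers still made up 4.19% to 7.92% of counts in FNcKO 0 h and 0.221% to 3.28% in FNcKO 48 h libraries. In WT they made up 3.64% to 6.06% at 0 h and 0.345% to 1.93% at 48 h, so their share was not matched between the times. The FNcKO strain mixes C57BL/6, 129 and FVB/N, whereas WT mice were C57BL/6, so genotype and strain background cannot be told apart. The labels do not say which exons of the fibronectin gene Fn1 were removed or which Cre line was used. Fn1 averaged 377 ± 280 CPM in FNcKO 48 h libraries and 1007 ± 494 CPM in WT 48 h libraries, and 11.6 ± 4.51 CPM in FNcKO 0 h libraries and 19.2 ± 3.76 CPM in WT 0 h libraries (SD, n = 3 each), in CPM, counts relative to the TMM-scaled library total, and whole-gene counts do not check a deletion of unknown extent.

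In a cell that is not dividing, most of this machinery is made at a low level. When the cell is driven into the cycle, cyclin E with its kinase helps to release the E2F transcription factors from repression, and these switch on many of the replication genes. Origins are licensed by loading a ring of MCM proteins onto DNA, the ring is later activated by further factors, and polymerases held on the template by a clamp then copy both strands. In the adult lens the central epithelium divides rarely, and dividing cells lie mainly in a zone near its equator; injury is known to bring quiescent lens epithelial cells back into the cycle.

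By 48 h, the replication genes were higher than at 0 h in both genotypes. In FNcKO, 34 of the 39 rose and 0 fell, where 14.9% of all tested genes rose and 9.90% fell (edgeR quasi-likelihood test, BH-adjusted p under 0.05, as in all counts of calls here). In WT, 31 rose and 0 fell, where 19.1% of all tested genes rose and 13.5% fell. The median log2 fold change over the 39 was 1.96 in FNcKO and 1.88 in WT, beside 0.00182 and 0.02 over all tested genes. The 3 libraries of 48 h all stood above the 3 of 0 h for 34 members in FNcKO, as for 20.1% of all tested genes, and for 35 members in WT, as for 27.5%. Every member had a fitted log2 fold change above 0 in both genotypes, against 50.1% of tested genes in FNcKO and 50.8% in WT. The sign of the smallest of these, Rfc1 in WT, turned with DESeq2 size factors. Of all genes called, 60.1% rose in FNcKO and 58.5% in WT, and with libraries scaled by total counts 82.4% and 76.3%, where the median log2 fold change of all genes was 0.29 in FNcKO and 0.23 in WT; 37 of the 39 then rose in FNcKO and 36 in WT.

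Some 30 members rose in both genotypes. Rfc3 passed in WT alone, with an adjusted p just over the threshold in FNcKO, and Orc1, Pola1, Rfc1 and Ccne2 passed in FNcKO alone. Gins3, Gins4, Rpa1 and Rpa3 passed in neither. None of these genes passed in the test of whether the 48 h response differed between the genotypes, so a call in 1 genotype alone is not shown to be a difference between them. The 12 libraries are called biological triplicates by the design text, while the number of lenses or animals in each library is not stated. The p-values set a difference between groups against the spread between these libraries. In bulk RNA, fewer cells that make a transcript and less transcript per cell cannot be told apart.

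**Figure D1:**
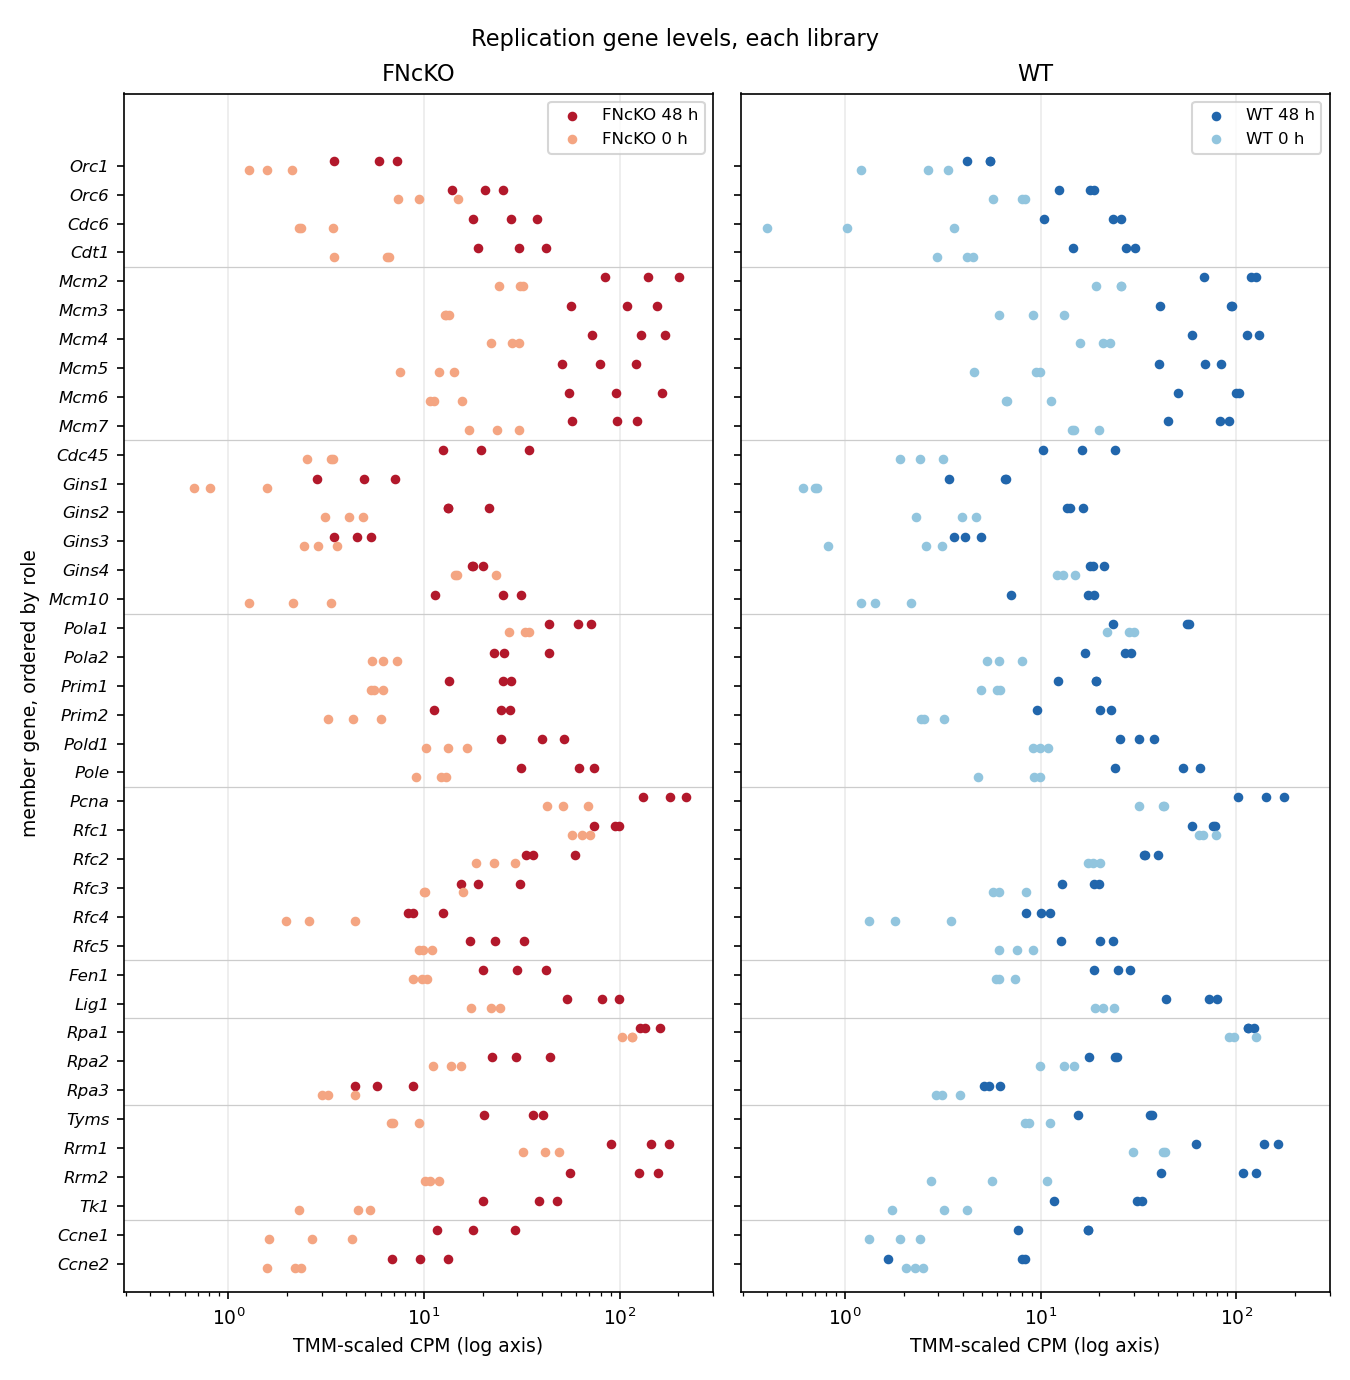
Level of each of the 39 replication genes in every library, in TMM-scaled CPM on a log axis, with FNcKO on the left and WT on the right; each point is 1 library and grey lines part the roles. The 48 h points lie to the right of the 0 h points for 34 genes in FNcKO and for 35 in WT, and overlap for genes such as Gins4 in FNcKO and Rfc1 in WT.

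The promoters of these genes differ in the sequence words they hold. Promoter windows from RefSeq (GRCm38.p6, the build that mm10 names) run from 250 bases before to 50 bases after a gene's start, and 35 windows matched 31 of the 39 members. They were searched for 4 spellings of the E2F consensus on either strand, TTTCCCGC, TTTCGCGC, TTTGCCGC and TTTGGCGC, where overlapping matches were each counted. At least 1 spelling occurred in 12 of the 35 windows (34.3%), which belong to 12 genes, in 3.65% of the windows of tested genes and in 2.26% of all windows in the table. The CCAAT word, on either strand, was in 60% of member windows and in 37.4% of the windows of tested genes. TTTGAA, a core of the cell cycle genes homology region known from genes of later phases, was in 11.4% of member windows and in 11.9% of those of tested genes. A word match is a description of the letters in the window and not a measurement of binding.

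The 4 windows that follow set strong and weak changes beside the presence and absence of the words. Cdc6 had the largest rise in WT among members whose window holds an E2F spelling (chr11:98907901-98908200, plus strand), Mcm6 the most matches of any member (chr1:128359656-128359955, minus strand), Rrm2 the largest rise in WT of all (chr12:24708004-24708303, plus strand) and Rfc1 the smallest (chr5:65335590-65335889, minus strand). Capitals mark E2F spellings; every window is read in the direction of the gene.
Cdc6: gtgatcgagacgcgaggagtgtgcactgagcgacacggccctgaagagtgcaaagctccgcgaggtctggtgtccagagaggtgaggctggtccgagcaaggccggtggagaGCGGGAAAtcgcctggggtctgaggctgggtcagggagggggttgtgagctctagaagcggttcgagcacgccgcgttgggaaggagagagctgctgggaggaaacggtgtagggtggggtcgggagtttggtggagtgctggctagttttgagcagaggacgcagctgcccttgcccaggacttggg
Mcm6: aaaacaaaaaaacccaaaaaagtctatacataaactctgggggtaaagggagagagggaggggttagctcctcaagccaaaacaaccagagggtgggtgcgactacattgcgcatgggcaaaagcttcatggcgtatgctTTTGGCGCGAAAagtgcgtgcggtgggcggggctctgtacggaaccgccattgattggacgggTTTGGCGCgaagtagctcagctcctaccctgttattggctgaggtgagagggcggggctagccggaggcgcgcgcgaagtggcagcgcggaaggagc
Rrm2: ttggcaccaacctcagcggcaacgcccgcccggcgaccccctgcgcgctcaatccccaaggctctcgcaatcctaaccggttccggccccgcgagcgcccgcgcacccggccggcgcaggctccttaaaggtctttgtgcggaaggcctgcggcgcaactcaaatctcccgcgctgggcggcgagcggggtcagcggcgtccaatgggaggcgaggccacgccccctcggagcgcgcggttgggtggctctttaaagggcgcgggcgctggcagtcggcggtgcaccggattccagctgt
Rfc1: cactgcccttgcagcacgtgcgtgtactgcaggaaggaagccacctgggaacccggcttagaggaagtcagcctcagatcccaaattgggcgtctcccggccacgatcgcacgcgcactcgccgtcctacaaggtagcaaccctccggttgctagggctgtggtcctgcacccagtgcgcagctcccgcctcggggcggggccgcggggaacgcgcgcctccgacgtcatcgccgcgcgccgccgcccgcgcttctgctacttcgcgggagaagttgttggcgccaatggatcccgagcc
Distances here are from the RefSeq start that a window was cut around. In Cdc6 the word reads GCGGGAAA and starts 138 bases before that start. The span counted for Cdc6 begins at 98907889, ahead of the whole window, so by that span the word lies inside the gene. The span counted for Mcm6 begins at 128359656, the last base of its window as read, so its distances differ by that span too. In Mcm6 TTTGGCGC lies 110 bases before the start and overlaps GCGCGAAA at 106 bases before it, and TTTGGCGC recurs at 47 bases before it. Neither the Rrm2 nor the Rfc1 window held any of the 4 spellings, so the largest and the smallest rise in WT both came from genes without one here. Orc1, Gins3 and Pola1, which did not pass in WT, each held 1.

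The helicase loaders recruit the MCM ring to origins, and all 4 rose in FNcKO and 3 of 4 in WT. Cdc6, the ATPase that joins the origin recognition complex and helps it load the ring, lies on chromosome 11, 98907889 to 98923942 (mm10). It had 17.8, 28 and 38 CPM in FNcKO 48 h libraries, against 2.35, 2.31 and 3.44 CPM in FNcKO 0 h libraries. In WT the Cdc6 level was 23.4, 10.4 and 25.6 CPM in WT 48 h libraries, against 0.401, 1.02 and 3.61 CPM in WT 0 h libraries. Cdc6 rose 10.4-fold in FNcKO (log2 3.37 ± 0.58 SE, BH-adjusted p = 0.0016 by edgeR) and 12.1-fold in WT (3.60 ± 0.60 SE, BH-adjusted p = 9.82e-04 by edgeR), and no 48 h library reached down to any 0 h library. Without WT 0 h replicate 3 the WT log2 value of Cdc6 was 4.78. The lowest WT 0 h value rests on few reads, since a level of 0.301 to 0.361 CPM corresponds to 3 counts in those libraries. Cdt1, the partner of Cdc6 in loading, rose 5.52-fold in FNcKO and 6.16-fold in WT.

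Orc1 and Orc6 are subunits of the origin recognition complex, which marks the sites where replication starts. For Orc1 there were 3.49, 5.9 and 7.3 CPM in FNcKO 48 h libraries, against 2.12, 1.27 and 1.58 CPM in FNcKO 0 h libraries. In WT the Orc1 level was 5.52, 4.18 and 5.5 CPM in WT 48 h libraries, against 1.2, 3.37 and 2.65 CPM in WT 0 h libraries. The libraries did not overlap in either genotype, and Orc1 passed in FNcKO, at 3.33-fold (log2 1.74 ± 0.45 SE, BH-adjusted p = 0.0137 by edgeR), and not in WT, at 2.1-fold (1.07 ± 0.44 SE, BH-adjusted p = 0.0758 by edgeR). Its call in FNcKO was lost without FNcKO 0 h replicate 2, without FNcKO 48 h replicate 3 and with the lens fiber marker level as a covariate, while its WT value passed with total counts as the scale (BH-adjusted p = 0.0492 by edgeR). Orc6 rose 1.89-fold in FNcKO (log2 0.92 ± 0.31 SE, BH-adjusted p = 0.0427 by edgeR) and 2.22-fold in WT (1.15 ± 0.31 SE, BH-adjusted p = 0.0125 by edgeR). Its FNcKO libraries overlapped, with 13.9, 20.5 and 25.3 CPM in FNcKO 48 h libraries, against 9.39, 7.39 and 14.9 CPM in FNcKO 0 h libraries, and leaving out any of 8 of the 12 libraries in turn ended that call. The WT call of Orc6 was lost without WT 0 h replicate 2.

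The 6 MCM genes encode the subunits of the ring helicase, and each rose in both genotypes, between 3.9-fold and 8.4-fold in FNcKO and between 4.42-fold and 10.3-fold in WT. Mcm6 had 55.5, 96.3 and 165 CPM in FNcKO 48 h libraries, against 15.7, 11.2 and 10.8 CPM in FNcKO 0 h libraries. In WT the Mcm6 level was 104, 50.2 and 99.4 CPM in WT 48 h libraries, against 6.72, 6.63 and 11.3 CPM in WT 0 h libraries. Mcm6 rose 8.4-fold in FNcKO (log2 3.07 ± 0.41 SE, BH-adjusted p = 4.34e-04 by edgeR) and 10.3-fold in WT (3.36 ± 0.42 SE, BH-adjusted p = 1.90e-04 by edgeR). Mcm2, which had the smallest WT rise of the 6, was at 84.6, 140.1 and 202 CPM in FNcKO 48 h libraries, against 30.9, 24.1 and 32.3 CPM in FNcKO 0 h libraries. In WT the Mcm2 level was 119, 68.1 and 127 CPM in WT 48 h libraries, against 25.9, 19.3 and 25.9 CPM in WT 0 h libraries. Mcm2 rose 4.89-fold in FNcKO (log2 2.29 ± 0.31 SE, BH-adjusted p = 3.40e-04 by edgeR) and 4.42-fold in WT (2.14 ± 0.31 SE, BH-adjusted p = 3.44e-04 by edgeR). For both genes every 48 h library exceeded every 0 h library of its genotype.

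The subunits of the ring are needed in equal number, and RPKM, a level scaled by coding length, allows them to be set beside each other within a library. The ratio of the highest to the lowest of the 6 RPKM values was 1.7, 1.78 and 1.69 in FNcKO 48 h libraries, against 2.82, 3.89 and 3.45 in FNcKO 0 h libraries. In WT the ratio was 1.57, 1.71 and 1.86 at 48 h, against 3.31, 4.6 and 2.98 at 0 h. The spread between subunits was thus smaller in each 48 h library than in any 0 h library, a description for which no test was run. Mcm5 was the lowest of the 6 in each of the 6 libraries of 48 h and in 4 of the 6 of 0 h, and Mcm6 in the other 2. Mcm3, Mcm5 and Mcm6, which rose more than 7-fold in both genotypes, were the 3 lowest by mean RPKM in the 0 h libraries of both genotypes.

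**Figure D2:**
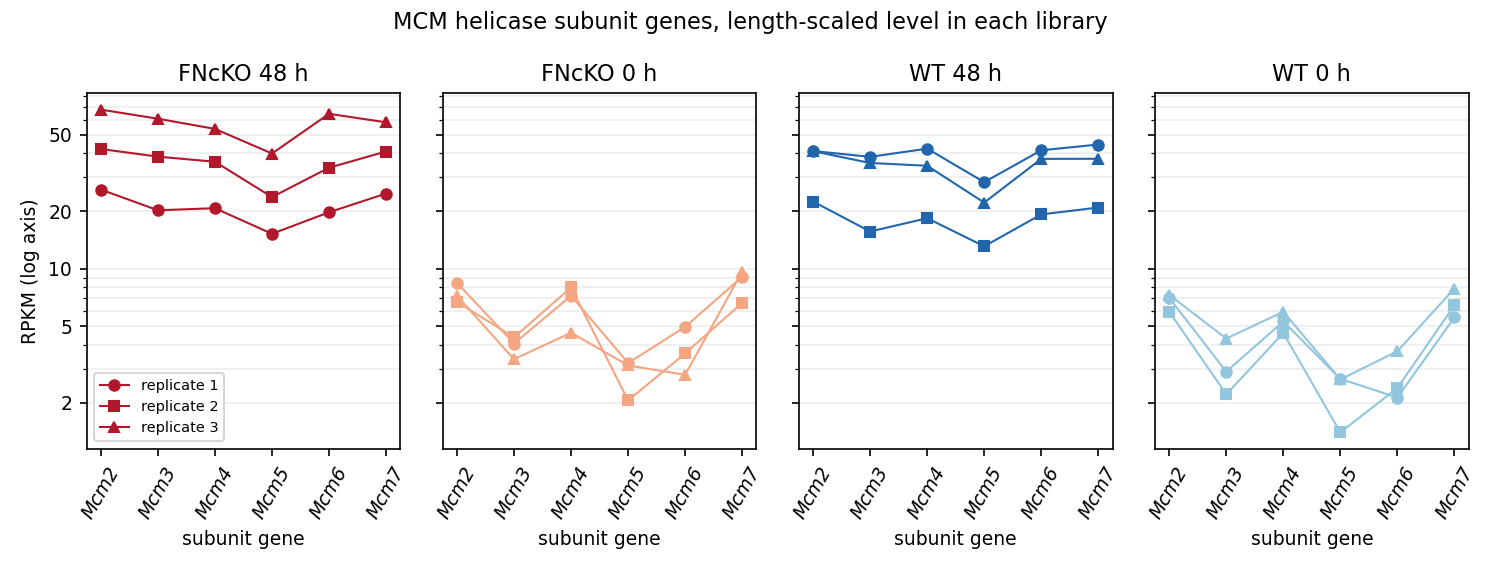
RPKM of the 6 MCM helicase genes on a log axis, with 1 line per library and 1 panel per group. The lines are flatter at 48 h, where the highest subunit is 1.57 to 1.86 times the lowest, than at 0 h, where the ratio runs from 2.82 to 4.6.

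Of the 6 factors that turn the loaded ring into a running helicase, 4 rose in each genotype. Mcm10, which binds the ring and is needed to start unwinding, had 11.4, 25.4 and 31.5 CPM in FNcKO 48 h libraries, against 3.35, 1.27 and 2.15 CPM in FNcKO 0 h libraries. In WT the Mcm10 level was 18.7, 7.1 and 17.5 CPM in WT 48 h libraries, against 1.2, 1.43 and 2.2 CPM in WT 0 h libraries. Mcm10 rose 10-fold in FNcKO (log2 3.32 ± 0.50 SE, BH-adjusted p = 5.57e-04 by edgeR) and 9.05-fold in WT (3.18 ± 0.50 SE, BH-adjusted p = 5.68e-04 by edgeR). Cdc45, which rides with the ring as part of the active helicase, rose 7.15-fold in FNcKO and 6.75-fold in WT.

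GINS is a complex of the products of Gins1, Gins2, Gins3 and Gins4 that completes the active helicase, and of its genes Gins1 and Gins2 rose, while Gins3 and Gins4 did not pass. Gins1 rose 4.89-fold in FNcKO and 8.02-fold in WT, and Gins2 rose 3.96-fold and 4.03-fold. Gins4 had 17.6, 20 and 17.8 CPM in FNcKO 48 h libraries, against 14.4, 14.8 and 23.2 CPM in FNcKO 0 h libraries. In WT the Gins4 level was 18.5, 21.1 and 17.8 CPM in WT 48 h libraries, against 15, 12.1 and 13 CPM in WT 0 h libraries. The FNcKO libraries overlapped and the WT libraries did not, and Gins4 did not pass in FNcKO (log2 0.08 ± 0.21 SE, BH-adjusted p = 0.821 by edgeR) or in WT (0.51 ± 0.22 SE, BH-adjusted p = 0.0835 by edgeR). Its sign in FNcKO turned when either FNcKO 0 h replicate 1 or FNcKO 0 h replicate 2 was left out, and its WT value passed with total counts as the scale (BH-adjusted p = 0.00882 by edgeR) and in the fit that left out FNcKO 0 h replicate 3 (BH-adjusted p = 0.0402 by edgeR). Gins3 had 3.49, 5.35 and 4.55 CPM in FNcKO 48 h libraries, against 3.58, 2.42 and 2.87 CPM in FNcKO 0 h libraries. In WT the Gins3 level was 3.62, 4.08 and 4.98 CPM in WT 48 h libraries, against 2.61, 0.816 and 3.13 CPM in WT 0 h libraries. Gins3 did not pass in FNcKO (log2 0.59 ± 0.45 SE, BH-adjusted p = 0.37 by edgeR) or in WT (0.95 ± 0.45 SE, BH-adjusted p = 0.123 by edgeR). By RPKM, Gins4 was among the 6 highest of the 39 in 0 h libraries of both genotypes, at 10.9 ± 1.68 in FNcKO and 9.49 ± 0.56 in WT (SD, n = 3 each), while Gins1 was at 0.737 ± 0.257 and 0.566 ± 0.0229. Gins1 had only 6, 7 and 11 counts in FNcKO 0 h libraries and 7, 6 and 6 in WT 0 h libraries. Its fold changes and its small WT 0 h SD thus rest on few reads.

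Of the 6 polymerase and primase genes, 6 rose in FNcKO and 5 in WT. Prim2, the large subunit of the primase that makes the RNA primers, had 11.3, 24.9 and 27.6 CPM in FNcKO 48 h libraries, against 4.36, 3.23 and 6.02 CPM in FNcKO 0 h libraries. In WT the Prim2 level was 22.8, 9.62 and 20.2 CPM in WT 48 h libraries, against 3.21, 2.45 and 2.53 CPM in WT 0 h libraries. Prim2 rose 4.7-fold in FNcKO (log2 2.23 ± 0.40 SE, BH-adjusted p = 0.00155 by edgeR) and 6.4-fold in WT (2.68 ± 0.41 SE, BH-adjusted p = 4.44e-04 by edgeR). Pola2 (the accessory subunit of DNA polymerase alpha), Prim1 (the catalytic primase subunit), Pold1 (the catalytic subunit of the lagging strand polymerase delta) and Pole (that of the leading strand polymerase epsilon) rose between 2.89-fold and 4.86-fold in FNcKO and between 2.94-fold and 5.97-fold in WT.

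Pola1, the catalytic subunit of DNA polymerase alpha, changed least of this role. For Pola1 there were 43.4, 61 and 71.1 CPM in FNcKO 48 h libraries, against 34.3, 32.8 and 27.1 CPM in FNcKO 0 h libraries. In WT the Pola1 level was 57.6, 23.4 and 56.1 CPM in WT 48 h libraries, against 28.4, 21.9 and 30.1 CPM in WT 0 h libraries. The FNcKO libraries did not overlap, whereas WT 48 h replicate 2 stood within the range of the WT 0 h libraries. Pola1 passed in FNcKO, at 1.86-fold (log2 0.90 ± 0.30 SE, BH-adjusted p = 0.0414 by edgeR), and not in WT, at 1.71-fold (0.77 ± 0.30 SE, BH-adjusted p = 0.0616 by edgeR). The WT value passed without WT 48 h replicate 2 (log2 1.09, BH-adjusted p = 0.00308 by edgeR) and with total counts as the scale (BH-adjusted p = 0.03 by edgeR), and the FNcKO call was lost in 7 of the 12 fits that left out 1 library.

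Pcna encodes the sliding clamp that holds polymerases on DNA, and the RFC genes encode the 5 subunits of the complex that opens and loads it. Pcna (chromosome 2, 132249286 to 132253180) had the highest RPKM of the 39 at 48 h, with 150.2 ± 44.7 in FNcKO and 125 ± 35.5 in WT, and stood at 36.9 ± 5.3 and 29.7 ± 3.01 at 0 h (SD, n = 3 each). Its library levels were 132, 181 and 219 CPM in FNcKO 48 h libraries, against 42.4, 51.6 and 69 CPM in FNcKO 0 h libraries. In WT the Pcna level was 175, 103 and 143 CPM in WT 48 h libraries, against 42.6, 31.7 and 42.2 CPM in WT 0 h libraries. Pcna rose 3.27-fold in FNcKO (log2 1.71 ± 0.25 SE, BH-adjusted p = 4.83e-04 by edgeR) and 3.61-fold in WT (1.85 ± 0.25 SE, BH-adjusted p = 2.02e-04 by edgeR), with no overlap between the times.

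The genes of the 4 small RFC subunits had larger fitted fold changes than that of the large one in both genotypes, a difference that was not tested. Rfc4, with the largest WT rise of the 5, had 8.77, 8.3 and 12.5 CPM in FNcKO 48 h libraries, against 2.57, 1.96 and 4.45 CPM in FNcKO 0 h libraries. In WT the Rfc4 level was 11.1, 8.46 and 10.1 CPM in WT 48 h libraries, against 1.81, 3.47 and 1.33 CPM in WT 0 h libraries. Rfc4 rose 3.31-fold in FNcKO (log2 1.73 ± 0.40 SE, BH-adjusted p = 0.00698 by edgeR) and 4.45-fold in WT (2.15 ± 0.40 SE, BH-adjusted p = 0.00155 by edgeR). Rfc2 and Rfc5 rose 1.83-fold and 2.39-fold in FNcKO and 1.91-fold and 2.48-fold in WT, where the Rfc2 call in FNcKO was lost when either of the first 2 FNcKO 0 h libraries or FNcKO 48 h replicate 3 was left out. Rfc3 had 15.4, 19 and 31.1 CPM in FNcKO 48 h libraries, against 9.95, 10.2 and 15.9 CPM in FNcKO 0 h libraries. In WT the Rfc3 level was 19.9, 12.9 and 18.8 CPM in WT 48 h libraries, against 8.43, 5.71 and 6.14 CPM in WT 0 h libraries. The highest FNcKO 0 h library of Rfc3 just exceeded the lowest FNcKO 48 h library, and Rfc3 missed the threshold in FNcKO, at 1.82-fold (log2 0.87 ± 0.30 SE, BH-adjusted p = 0.0513 by edgeR), while it rose 2.54-fold in WT (1.34 ± 0.31 SE, BH-adjusted p = 0.00536 by edgeR). The FNcKO value passed without FNcKO 48 h replicate 1 (BH-adjusted p = 0.0228 by edgeR), without FNcKO 0 h replicate 3 (BH-adjusted p = 0.0322 by edgeR) and, in a fit that left out WT 48 h replicate 2, at a BH-adjusted p of 0.0481 by edgeR. It also passed by DESeq2 (adjusted p = 0.0379), and by edgeR with total counts as the scale (BH-adjusted p = 0.0101) and with a replicate block (BH-adjusted p = 0.0487).

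Rfc1 (chromosome 5, 65261852 to 65335639), the large subunit of the loader, had the smallest change of all 39 in WT. It had 74.3, 94.6 and 98.9 CPM in FNcKO 48 h libraries, against 64.4, 70.6 and 56.8 CPM in FNcKO 0 h libraries. In WT the Rfc1 level was 77.8, 59.5 and 76.4 CPM in WT 48 h libraries, against 78.6, 64.7 and 67.8 CPM in WT 0 h libraries. The WT groups overlapped and did not pass (log2 0.02 ± 0.17 SE, BH-adjusted p = 0.947 by edgeR). In FNcKO the 3 libraries of 48 h exceeded the 3 of 0 h and Rfc1 passed by a narrow margin, at 1.39-fold (0.48 ± 0.17 SE, BH-adjusted p = 0.0498 by edgeR). That call was lost in 17 of 20 alternative fits, DESeq2 among them. The RPKM of Rfc1 divided by the mean RPKM of Rfc2 to Rfc5 was 1.22, 1.34 and 0.896 in FNcKO 48 h libraries, against 1.77, 2.15 and 1.14 in FNcKO 0 h libraries. In WT it was 1.07, 1.07 and 1.05 at 48 h, against 2.64, 2.27 and 2.5 at 0 h. The times overlapped in FNcKO and not in WT, and no test was run on these ratios.

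Fen1 and Lig1, the flap nuclease and the ligase that finish and join lagging strand fragments, both rose. Fen1 had 20.1, 29.9 and 42.1 CPM in FNcKO 48 h libraries, against 10.4, 8.77 and 9.75 CPM in FNcKO 0 h libraries. In WT the Fen1 level was 24.7, 18.7 and 28.6 CPM in WT 48 h libraries, against 7.42, 5.92 and 6.14 CPM in WT 0 h libraries. Fen1 rose 3.18-fold in FNcKO (log2 1.67 ± 0.27 SE, BH-adjusted p = 8.31e-04 by edgeR) and 3.69-fold in WT (1.88 ± 0.27 SE, BH-adjusted p = 3.02e-04 by edgeR). Lig1 had 53.8, 81.4 and 99.4 CPM in FNcKO 48 h libraries, against 24.6, 22 and 17.4 CPM in FNcKO 0 h libraries. In WT the Lig1 level was 79.8, 43.7 and 72.2 CPM in WT 48 h libraries, against 19.1, 20.9 and 23.6 CPM in WT 0 h libraries. Lig1 rose 3.66-fold in FNcKO (log2 1.87 ± 0.26 SE, BH-adjusted p = 3.45e-04 by edgeR) and 3.08-fold in WT (1.62 ± 0.26 SE, BH-adjusted p = 5.50e-04 by edgeR). Neither gene had a 48 h library within the range of its 0 h libraries.

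RPA coats exposed single-stranded DNA, and of its 3 subunit genes Rpa2 rose, while Rpa3 in both genotypes and Rpa1 in FNcKO passed only when libraries were scaled by total counts. Rpa2 had 22.3, 29.6 and 44 CPM in FNcKO 48 h libraries, against 13.8, 11.1 and 15.5 CPM in FNcKO 0 h libraries. In WT the Rpa2 level was 23.9, 17.7 and 24.6 CPM in WT 48 h libraries, against 13.1, 9.9 and 14.8 CPM in WT 0 h libraries. Rpa2 rose 2.38-fold in FNcKO (log2 1.25 ± 0.27 SE, BH-adjusted p = 0.00438 by edgeR) and 1.75-fold in WT (0.81 ± 0.26 SE, BH-adjusted p = 0.0322 by edgeR), where the WT call was lost when replicate 1 or 2 of WT 0 h, or replicate 1 or 3 of WT 48 h, was left out. Rpa1, the large subunit, had 127, 136 and 160.1 CPM in FNcKO 48 h libraries, against 115, 103 and 116 CPM in FNcKO 0 h libraries. In WT the Rpa1 level was 116, 115 and 123 CPM in WT 48 h libraries, against 125, 92 and 97.9 CPM in WT 0 h libraries. It was already the member with the highest WT 0 h RPKM (32.6 ± 3.87, SD, n = 3) and it passed neither in FNcKO (log2 0.34 ± 0.15 SE, BH-adjusted p = 0.13 by edgeR) nor in WT (0.17 ± 0.15 SE, BH-adjusted p = 0.427 by edgeR). Rpa3, the small subunit, had 4.44, 5.79 and 8.78 CPM in FNcKO 48 h libraries, against 3.24, 3 and 4.45 CPM in FNcKO 0 h libraries. In WT the Rpa3 level was 5.14, 5.44 and 6.23 CPM in WT 48 h libraries, against 2.91, 3.88 and 3.13 CPM in WT 0 h libraries. Rpa3 did not pass in FNcKO (log2 0.83 ± 0.35 SE, BH-adjusted p = 0.0948 by edgeR) or in WT (0.76 ± 0.34 SE, BH-adjusted p = 0.108 by edgeR), although its WT libraries did not overlap.

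All 4 nucleotide synthesis genes rose in both genotypes. Rrm2 (chromosome 12, 24708254 to 24714146) encodes the small subunit of ribonucleotide reductase, which turns ribonucleotides into deoxyribonucleotides and whose level is tied to the copying phase of the cell cycle. It had 55.6, 126 and 156 CPM in FNcKO 48 h libraries, against 10.2, 10.7 and 11.9 CPM in FNcKO 0 h libraries. In WT the Rrm2 level was 108, 41.2 and 126 CPM in WT 48 h libraries, against 5.62, 2.75 and 10.7 CPM in WT 0 h libraries. Rrm2 rose 10.3-fold in FNcKO (log2 3.37 ± 0.54 SE, BH-adjusted p = 0.00137 by edgeR) and 14.6-fold in WT (3.86 ± 0.56 SE, BH-adjusted p = 5.62e-04 by edgeR), and its WT rise was the largest of the 39, with a log2 value of 4.45 without WT 0 h replicate 3. Tyms, thymidylate synthase, which makes the thymine nucleotide anew, had 20.4, 36.1 and 40.7 CPM in FNcKO 48 h libraries, against 6.82, 6.93 and 9.47 CPM in FNcKO 0 h libraries. In WT the Tyms level was 36.2, 15.5 and 37.1 CPM in WT 48 h libraries, against 8.73, 8.36 and 11.2 CPM in WT 0 h libraries. Tyms rose 4.2-fold in FNcKO (log2 2.07 ± 0.35 SE, BH-adjusted p = 0.00104 by edgeR) and 3.14-fold in WT (1.65 ± 0.34 SE, BH-adjusted p = 0.00273 by edgeR). Tk1, the thymidine kinase that salvages thymidine, rose 8.76-fold in FNcKO and 8.29-fold in WT.

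Rrm1 encodes the large subunit that pairs with Rrm2, and rose 3.39-fold in FNcKO and 3.17-fold in WT. The ratio of Rrm2 to Rrm1 in RPKM was 1.13, 1.59 and 1.6 in FNcKO 48 h libraries, against 0.38, 0.475 and 0.682 in FNcKO 0 h libraries. In WT the ratio was 1.21, 1.21 and 1.66 at 48 h, against 0.238, 0.171 and 0.464 at 0 h. Rrm2 was thus below Rrm1 in each 0 h library and above it in each 48 h library.

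**Figure D3:**
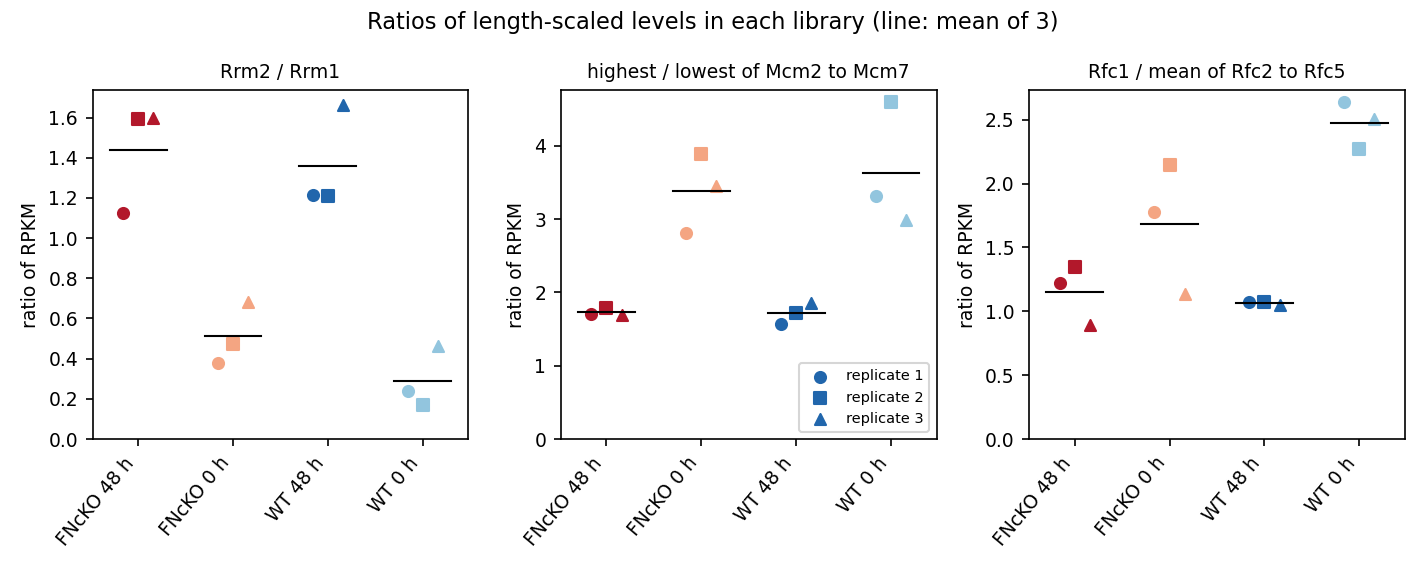
Ratios of RPKM in each library for Rrm2 over Rrm1, for the highest over the lowest of Mcm2 to Mcm7, and for Rfc1 over the mean of Rfc2 to Rfc5; points are libraries and lines are means of 3. The times separate in both genotypes for the left and middle ratios, while the right ratio separates them in WT and overlaps in FNcKO.

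The E cyclins activate the kinase that starts replication. Ccne1 had 11.6, 17.8 and 29.2 CPM in FNcKO 48 h libraries, against 2.68, 1.62 and 4.3 CPM in FNcKO 0 h libraries. In WT the Ccne1 level was 17.5, 7.68 and 17.4 CPM in WT 48 h libraries, against 1.91, 1.33 and 2.41 CPM in WT 0 h libraries. Ccne1 rose 6.87-fold in FNcKO (log2 2.78 ± 0.46 SE, BH-adjusted p = 9.74e-04 by edgeR) and 7.55-fold in WT (2.92 ± 0.47 SE, BH-adjusted p = 5.89e-04 by edgeR). Ccne2 (chromosome 4, 11191351 to 11204779) had 6.87, 9.5 and 13.2 CPM in FNcKO 48 h libraries, against 2.35, 2.19 and 1.58 CPM in FNcKO 0 h libraries. In WT the Ccne2 level was 8.28, 1.65 and 7.99 CPM in WT 48 h libraries, against 2.51, 2.04 and 2.29 CPM in WT 0 h libraries. Ccne2 rose 4.78-fold in FNcKO (log2 2.26 ± 0.52 SE, BH-adjusted p = 0.00659 by edgeR) and, at 2.61-fold, narrowly missed the threshold in WT (1.38 ± 0.51 SE, BH-adjusted p = 0.0502 by edgeR). WT 48 h replicate 2 lay below all WT 0 h libraries, and without it the WT value passed (log2 1.83, BH-adjusted p = 0.00315 by edgeR). With all libraries the WT value passed by DESeq2 (adjusted p = 0.0329), and by edgeR with no filter on low counts (BH-adjusted p = 0.0488) and with total counts as the scale (BH-adjusted p = 0.0313). The spans of 11 members overlap another gene of the annotation. For Cdc6, Mcm7, Gins1, Pold1, Pcna and Rpa1 these are microRNA genes only. Gins2, Rfc4, Lig1, Tk1 and Ccne2 overlap other genes (Gse1, Eif4a2, 6330408A02Rik, Afmid and Ints8, in that order). The strand setting of the counting was not stated, so their levels may include reads of that neighbour.

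**Figure D4:**
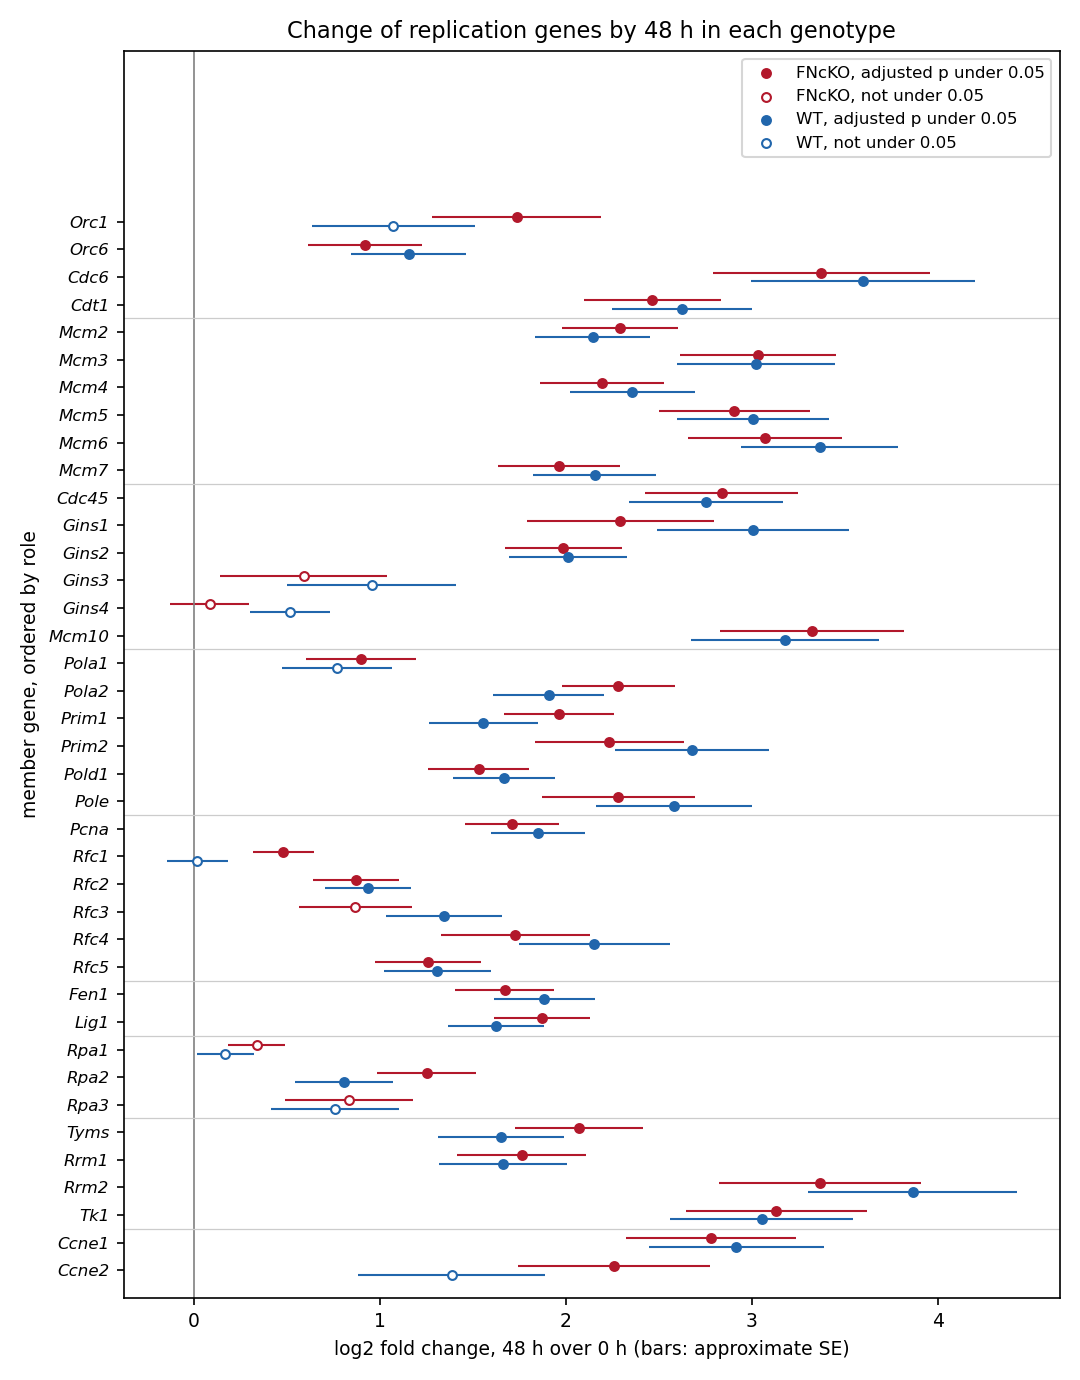
Log2 fold change at 48 h over 0 h for each replication gene in FNcKO (red) and WT (blue), with bars for the approximate SE; filled points have an adjusted p under 0.05. Rrm2 in WT lies farthest right at 3.86 and Rfc1 in WT lies at 0.02.

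The comparison of genotypes asks whether losing fibronectin goes with another level of these genes. At 48 h, 0 of the 39 passed in either direction, as 0.240% of tested genes did (edgeR), and 0 had an unadjusted p under 0.05, as 5.47% did. By DESeq2 0 passed as well. Some 36 of the 39 had a higher fitted level in FNcKO 48 h than in WT 48 h libraries, as 52.0% of tested genes did, with a median log2 difference of 0.33 beside 0.01 over all tested genes. Without FNcKO 48 h replicate 1, 8 of the 39 had an unadjusted p under 0.05, as 6.53% of tested genes did, and with the lens fiber marker level as a covariate 2 did, as 6.52%. The median ran from 0.04 without FNcKO 48 h replicate 3, where 24 of the 39 were higher in FNcKO, to 0.54 without FNcKO 48 h replicate 1, where 38 were. The smallest p-values were those of Rpa2 (log2 difference 0.53 ± 0.26 SE, unadjusted p = 0.0589 and BH-adjusted p = 0.958 by edgeR), Rfc1 (log2 difference 0.33 ± 0.17 SE, unadjusted p = 0.0708 and BH-adjusted p = 1 by edgeR) and Rpa1 (log2 difference 0.25 ± 0.15 SE, unadjusted p = 0.122 and BH-adjusted p = 1 by edgeR). Of the 39 only Rpa1 had all FNcKO 48 h libraries above all WT 48 h libraries, as 4.48% of tested genes did.

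At 0 h, 0 of the 39 passed, as 0.144% of tested genes did (edgeR), and 0 by DESeq2. There was 1 member with an unadjusted p under 0.05, Rfc3, where 11% of tested genes had one. That count was 0 without WT 0 h replicate 2 (4.76% of tested genes) or FNcKO 0 h replicate 3 (5.32%), 1 or 2 without any other single library, 3 without both 0 h replicate 1 libraries (12.5%) and 8 with the lens fiber covariate (12.3%). Some 33 of the 39 had a higher fitted level in FNcKO 0 h than in WT 0 h libraries, as 51.2% of tested genes did, with a median log2 difference of 0.42 beside 0.01 over all tested genes, and 27 did when libraries were scaled by total counts. The median ran from 0.25 without FNcKO 0 h replicate 3 to 0.53 without WT 0 h replicate 3. The smallest p-values belonged to Rfc3 (log2 difference 0.82 ± 0.31 SE, unadjusted p = 0.0201 and BH-adjusted p = 0.399 by edgeR), Fen1 (log2 difference 0.57 ± 0.27 SE, unadjusted p = 0.0581 and BH-adjusted p = 0.471 by edgeR) and Pcna (log2 difference 0.48 ± 0.25 SE, unadjusted p = 0.0724 and BH-adjusted p = 0.492 by edgeR). Prim2, Rfc3, Rfc5 and Fen1 had all FNcKO 0 h libraries above all WT 0 h libraries, as 8.68% of tested genes did.

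The 48 h response itself was compared by the difference of the log2 fold changes, FNcKO minus WT. Here 0 of the 39 and 0 of all tested genes passed (edgeR), 0 members had an unadjusted p under 0.05, as 5.05% of tested genes did, and 0 members passed by DESeq2. The median difference over the members was −0.07, with 17 of the 39 above 0, as 49.1% of tested genes were. Both turn on single 48 h libraries: the median was −0.37 with 9 above 0 without FNcKO 48 h replicate 3, −0.28 with 10 above 0 without WT 48 h replicate 2, and 0.12 with 30 above 0 without FNcKO 48 h replicate 1. Rfc1 (log2 difference 0.46 ± 0.23 SE, unadjusted p = 0.0695 and BH-adjusted p = 0.945 by edgeR), Gins4 (log2 difference −0.43 ± 0.30 SE, unadjusted p = 0.179 and BH-adjusted p = 0.945 by edgeR) and Ccne2 (log2 difference 0.87 ± 0.71 SE, unadjusted p = 0.241 and BH-adjusted p = 0.945 by edgeR) had the smallest p-values. A p that misses the threshold does not show that the genotypes respond alike.

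Within a 48 h group the replication genes moved together from library to library. FNcKO 48 h replicate 3 was the highest of its group for 37 of the 39, as for 37.8% of all tested genes, and FNcKO 48 h replicate 1 the lowest for 37, as for 37.1%. WT 48 h replicate 2 was the lowest of its group for 36, as for 35.8% of tested genes. The summed level of the 39 was 1352, 2081 and 2737 CPM in FNcKO 48 h libraries, against 648, 586 and 673 CPM in FNcKO 0 h libraries. In WT the sum was 1970, 1087 and 1877 CPM at 48 h, against 578, 465 and 575 CPM at 0 h. The lowest 48 h sum, in WT replicate 2, still exceeded the highest 0 h sum of either genotype.

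Over time, and between the libraries of each 48 h group, the level of lens fiber genes ran the other way. The summed level of 11 fiber markers (crystallins, Bfsp1, Bfsp2, Mip, Lim2, Gja3 and Dnase2b) was 31835, 13880 and 1955 CPM in FNcKO 48 h libraries, against 45444, 51798 and 105066 CPM in FNcKO 0 h libraries. In WT it was 2962, 17330 and 12134 CPM at 48 h, against 66008, 34866 and 44215 CPM at 0 h. In each 48 h group the library with the most fiber marker counts had the lowest replication sum. In each 0 h group, by contrast, the library with the most had the highest replication sum (FNcKO replicate 3 and WT replicate 1). Of the 11 fiber markers 5 fell and 0 rose in each genotype, and the 8 lens epithelium markers, which include crystallins that fibers make as well, had 2 fall and 1 rise in FNcKO and 3 fall and 1 rise in WT. With the fiber marker level as a covariate, an alternative chosen after the data were seen, 20 of the 39 rose in FNcKO, where 5.23% of tested genes rose, and 24 rose in WT, where 8.93% rose. The median log2 fold change was then 1.4 in FNcKO and 1.46 in WT. Rrm2, Cdc6, Mcm10, Ccne1 and all 6 MCM genes passed in both genotypes in that fit. Every 48 h library had a lower fiber marker sum than every 0 h library of its genotype. The covariate thus moves with time, and the fit cannot part a change over time from a change in fiber marker level.

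Markers of immune cells, only some of which can divide, were higher at 48 h. The summed level of 11 macrophage and monocyte markers was 187, 281 and 434 CPM in FNcKO 48 h libraries, against 48.5, 84 and 98.5 CPM in FNcKO 0 h libraries, and 7 markers rose and 1 fell. In WT it was 797, 389 and 270.2 CPM at 48 h, against 66.5, 126 and 149.5 CPM at 0 h, and 6 rose and 0 fell. The 4 leukocyte markers summed to 34.5, 64.8 and 109 CPM in FNcKO 48 h libraries, against 6.48, 14.2 and 12.6 CPM in FNcKO 0 h libraries, and 3 rose. In WT they summed to 205, 104 and 68 CPM at 48 h, against 11.2, 18.3 and 27 CPM at 0 h, and 4 rose. The neutrophil list summed to 41.5 to 111 CPM in FNcKO 48 h and 3.8 to 4.73 CPM in FNcKO 0 h libraries, and to 61.3 to 347 CPM in WT 48 h and 4.82 to 10.2 CPM in WT 0 h libraries, with 4 of 5 tested markers higher in FNcKO and 5 of 5 in WT. T and B cell markers were too low to test, at 0.952 CPM or less in sum in any library. In each genotype the 48 h library with the highest replication sum also had the highest macrophage, neutrophil and leukocyte sums. These were FNcKO replicate 3 and WT replicate 1. In WT the 48 h library with the lowest replication sum, replicate 2, had neither the highest nor the lowest macrophage sum. Of 5 vascular endothelium markers 3 rose in FNcKO and 2 in WT, with sums of 16.5 to 42.3 CPM in FNcKO 48 h and 3.91 to 20.1 CPM in FNcKO 0 h libraries, and 38.5 to 60.5 CPM in WT 48 h and 13 to 39 CPM in WT 0 h libraries. Of 5 pigment cell markers 3 were lower in FNcKO than in WT at 48 h, with sums of 56, 32.7 and 14.4 CPM in FNcKO 48 h libraries, against 428, 388 and 165 CPM in WT 48 h libraries. At 0 h the pigment sum was 71 to 89.9 CPM in FNcKO and 107 to 215 CPM in WT libraries, and over time 1 pigment marker fell in FNcKO and 2 rose in WT. Of 3 tested corneal epithelium markers 1 fell in each genotype. How much of the replication gene level came from immune, endothelial or pigment cells was not tested.

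**Figure D5:**
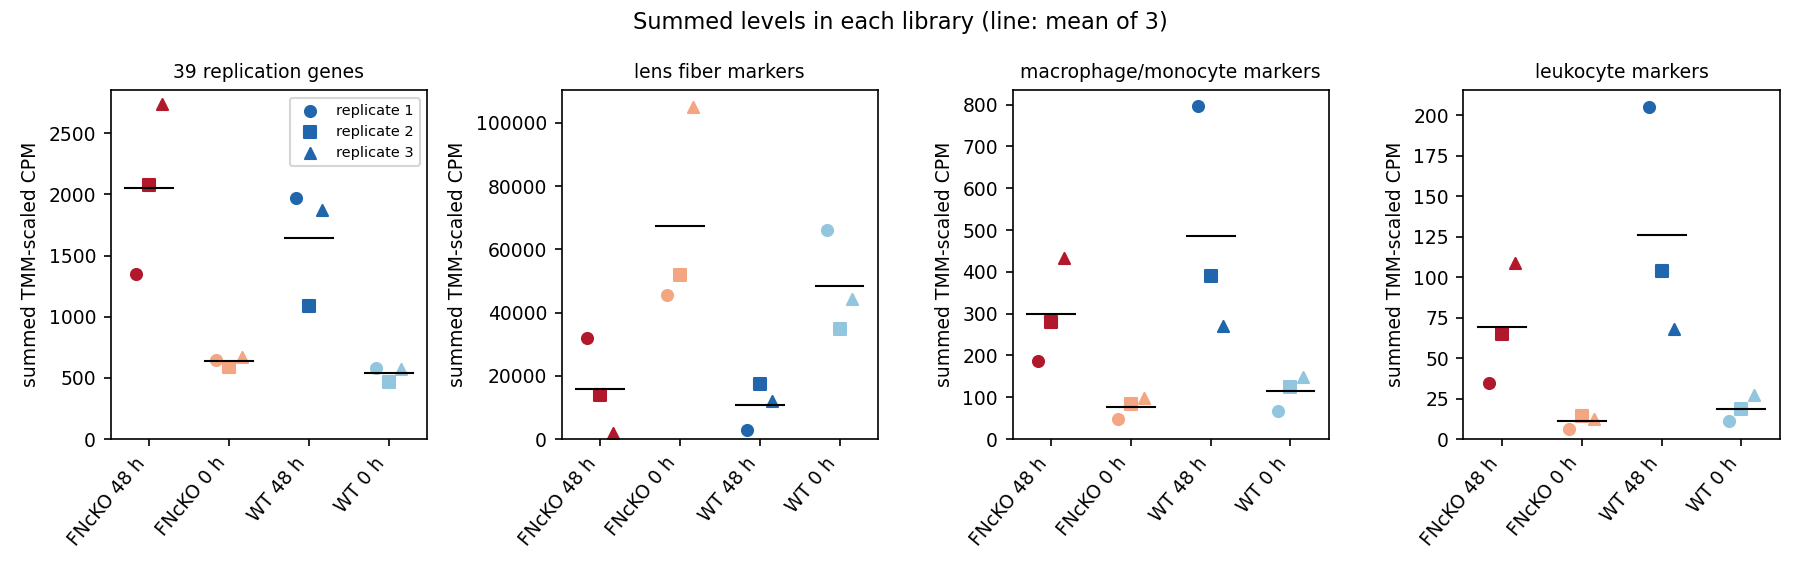
Summed TMM-scaled CPM in each library for the 39 replication genes, 11 lens fiber markers, 11 macrophage and monocyte markers and 4 leukocyte markers; points are libraries and lines are means of 3. The replication sum is 1087 to 2737 CPM at 48 h and 465 to 673 CPM at 0 h, and within each 48 h group it is lowest in the library with the most fiber marker counts.

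Another 63 genes of replication, chromatin assembly behind the fork, nucleotide supply and entry into the copying phase were set beside the 39, and all were tested. This list too was chosen with earlier results of these data known. In FNcKO 50 of the 63 rose and 0 fell, where 14.9% of all tested genes rose, and in WT 48 rose and 0 fell, where 19.1% rose. The median log2 fold change was 1.21 in FNcKO and 1.21 in WT. The 3 with the largest WT rise were Exo1, an exonuclease of repair and replication, E2f7, a repressor of the E2F family that is itself induced late in that phase, and Clspn, an adaptor of the replication checkpoint. Exo1 had 10.1, 15.4 and 18.4 CPM in FNcKO 48 h libraries, against 0.447, 0.346 and 1.72 CPM in FNcKO 0 h libraries. In WT the Exo1 level was 14.8, 4.18 and 13.7 CPM in WT 48 h libraries, against 1.4, 0.102 and 0.241 CPM in WT 0 h libraries. Exo1 rose 18-fold in FNcKO (log2 4.17 ± 0.77 SE, BH-adjusted p = 0.00213 by edgeR) and 17.8-fold in WT (4.16 ± 0.78 SE, BH-adjusted p = 0.00175 by edgeR). The size of these rises rests on few reads, since WT 0 h replicates 2 and 3 lie under the level that 3 counts give there (0.306 and 0.361 CPM). The log2 value was 5.12 in FNcKO without FNcKO 0 h replicate 3 and 5.92 in WT without WT 0 h replicate 1. E2f7 rose 15.9-fold in FNcKO and 15.5-fold in WT, and Clspn 7.83-fold and 14.5-fold, and the WT log2 value of E2f7 was 4.74 without WT 0 h replicate 3. None of the 63 passed between the genotypes at either time or in the difference of the responses (edgeR and DESeq2), while 2 had an unadjusted p under 0.05 at 48 h, where 5.47% of tested genes did, 6 at 0 h, where 11% did, and 1 in the difference, where 5.05% did. An E2F spelling was in 20 of the 70 windows that matched these genes (28.6%), beside 3.65% of the windows of tested genes.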

How the data were processed

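The authors deposited 1 table per library with whole-number read counts for 24147 genes and their RPKM values, per the file headers. Dividing a count by coding length and by summed counts gives its RPKM (largest relative difference 5.1e-15) and was used to compare genes with each other. The submitters' processing notes name bedtools 2.17, edgeR 3.16.5, FastQC, HTSeq 0.6.1p1, SAMtools 1.4, TopHat2 2.1.0 and Trim Galore 0.4.4, and the build mm10, with no roles. The annotation, strand setting, handling of reads with several matches and number of lenses per library were not stated (not given in the sources used here), and members with near-identical copies may have lost or gained reads. In a combined table of 9 libraries, the count column named for WT 0 h replicate 1 equals the table of FNcKO 0 h replicate 1 in all 24147 genes, so the per-library tables were used throughout. Its 9 RPKM columns were not used.

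Counts were fitted in R 4.3.3 with edgeR 4.0.16 as 4 group means over 12 libraries of 8368160 to 10862573 counts, after filterByExpr by group (minimum count 10) and TMM scaling (factors 0.754 to 1.165). Differences were tested by the robust quasi-likelihood F test with Benjamini-Hochberg (BH) adjustment over all 14560 tested genes, and the code was tested on simulated data. Levels are TMM-scaled CPM, counts relative to the scaled library total. The SE of a log2 value was approximated from the F statistic, as its size over the root of F. A count of 0 would allow up to 3 counts (0.286 to 0.43 CPM by library), which covers counting error only. DESeq2 1.42.0, other scalings, no filter, left-out libraries, a replicate block, fits of the compared groups alone and a lens fiber covariate were alternatives. The members and lists were chosen with earlier results of these data known. Values by library are given for the highest and lowest member of each role in WT, for members that passed in fewer than both comparisons over time, for the 3 smallest p-values between genotypes and for the 3 pathway genes with the largest WT rise; Orc6 was added after its values were seen.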

Additional observations from a re-analysis of the deposited data

How the results depend on the processing

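Over 20 alternatives, 29 to 37 of the 39 replication genes rose in FNcKO and 29 to 36 in WT, apart from the fit with the lens fiber marker level as a covariate, and 0 fell. That covariate was lower in every 48 h library than in every 0 h library of its genotype, so it is not separate from time. That fit, chosen after the data were seen, gave 20 replication genes higher in FNcKO and 24 in WT, medians of 1.4 and 1.46 on the log2 scale, 16 and 22 of the 63 pathway genes higher, 762 of all genes higher and 214 lower in FNcKO, and 1300 higher and 605 lower in WT; it called 18 higher and 20 lower between genotypes at 0 h, and 3 lower in the difference of the responses. The labels give biological triplicates and no batch. Correlations of same-numbered deviations ran from −0.474 to 0.291, and 3 of 12 comparisons of a library with the other group matched its own number best. With 3 libraries per group, this cannot settle whether replicate numbers pair the libraries. A replicate block gave 33 replication genes higher in FNcKO, without Pola1 and Rfc1 and with Rfc3, and 31 in WT. With that block, 3 of all genes were higher between genotypes at 48 h, 5 lower at 0 h and 1 lower in the difference. With total counts as the scale, 3408 of all genes were higher and 727 lower in FNcKO, 1211 lower in WT, and between genotypes 3 higher at 0 h and 1 higher at 48 h. DESeq2 called 27 higher and 92 lower at 48 h, 64 and 65 at 0 h, and 7 and 21 in the difference. Without both 0 h replicate 1 libraries, 1438 genes were higher and 861 lower in FNcKO, 0 and 2 differed at 0 h, and 2 and 12 at 48 h. Fits of the compared groups alone gave 950 lower in FNcKO, 18 higher at 0 h, and 0 higher and 7 lower at 48 h. Leaving out single libraries gave 763 to 1730 genes lower in FNcKO, 1198 to 2284 lower in WT, 0 to 14 higher and 2 to 15 lower between genotypes at 0 h, 1 to 7 higher and 9 to 41 lower at 48 h, 0 to 1 lower in the difference, and 0 to 1 pathway genes lower in FNcKO. The log2 fold change of Gins4 in FNcKO ran from −0.039 to 0.30 without single libraries, turning to −0.039 and −0.025 when the first and then the second FNcKO 0 h library was left out, and to −0.040 without both 0 h replicate 1 libraries. That of Rfc1 in WT turned to −0.0056 with DESeq2 size factors, −0.0027 by DESeq2 and −0.20 with the covariate, and ran from −0.071 to 0.14 without single libraries, below 0 in 5 of them. In these fits neither gene passed. The causes were not tested. Depth limits the members at a few CPM most: the lowest member had 4 counts in a 0 h library.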

Other observations

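Some replication genes outside the 39 did not pass over time, and those named here were chosen after their values were seen. Orc3, Orc4 and Orc5, which encode core subunits of the origin recognition complex, passed in neither genotype. Orc2, another core subunit, did pass in WT (log2 0.55, BH-adjusted p = 0.046 by edgeR). It averaged 49.4 ± 12.6 CPM in FNcKO 48 h and 27.1 ± 3.13 CPM in FNcKO 0 h libraries (SD, n = 3 each). Orc3 averaged 59.7 ± 1.98 CPM in FNcKO 48 h and 73.9 ± 6.06 CPM in FNcKO 0 h libraries, and 60.1 ± 3.91 CPM in WT 48 h and 68.1 ± 6.10 CPM in WT 0 h libraries (SD, n = 3 each). Mcm9, a relative of the ring subunits that acts in repair, had a log2 fold change of −0.24 in FNcKO (edgeR, BH-adjusted p = 0.529) and −0.18 in WT (edgeR, BH-adjusted p = 0.608). Rrm2b, the other small subunit of ribonucleotide reductase, which serves cells outside the copying phase, had −0.52 in FNcKO (edgeR, BH-adjusted p = 0.0864) and −0.20 in WT (edgeR, BH-adjusted p = 0.477).

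Gmnn encodes geminin, which binds Cdt1 and blocks loading of the helicase after origins have fired. It averaged 11.5 ± 5.56 CPM in FNcKO 48 h and 3.24 ± 0.778 CPM in FNcKO 0 h libraries, and 10.1 ± 3.68 CPM in WT 48 h and 0.993 ± 0.534 CPM in WT 0 h libraries (SD, n = 3 each). Of the 63 pathway genes it had the smallest p between genotypes at 0 h (log2 difference 1.71 ± 0.52 SE, unadjusted p = 0.00552 and BH-adjusted p = 0.311 by edgeR) and in the difference of the 48 h responses (log2 difference −1.52 ± 0.67 SE, unadjusted p = 0.0403 and BH-adjusted p = 0.945 by edgeR), and it passed in neither. The ratio of Ccne2 to Ccne1 in RPKM was 0.359, 0.324 and 0.275 in FNcKO 48 h libraries, against 0.532, 0.824 and 0.223 in FNcKO 0 h libraries. In WT it was 0.287, 0.131 and 0.278 at 48 h, against 0.799, 0.935 and 0.577 at 0 h. The times overlapped in FNcKO and not in WT, and no test was run on the ratio.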
